A study of Mus musculus with 3 samples.

Results

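The 9 genes described here encode parts of the gamma-delta T cell receptor and were chosen by symbol from the 32285 genes of the files. They are the delta constant gene Trdc, the delta variable genes Trdv4 and Trdv2-2, the gamma variable genes Tcrg-V1, Tcrg-V7 and Trgv2, and the gamma constant genes Tcrg-C1, Tcrg-C2 and Tcrg-C4. The files list 26 gamma and delta receptor genes in all. Each gene was counted in unique molecular identifiers (UMIs, 1 per captured RNA molecule) in cells with at least 1 UMI of Cd3e, a chain of the CD3 complex that all T cell receptors need, and in the other cells of the same wells.

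A T cell receptor is a pair of chains, alpha with beta or gamma with delta, and each chain joins a variable (V) region, which contacts the ligand, to a constant (C) region. The genes are assembled in the thymus by cutting and joining DNA, and the gamma locus is built as a row of small cassettes in which each V gene lies near its own joining and constant gene. Cutting and transcription of a gamma locus also take place in many cells that end up with an alpha-beta receptor, so a gamma RNA alone does not make a gamma-delta T cell. In the mouse small intestine, gamma-delta T cells live mainly between the epithelial cells, many carry the CD8 alpha homodimer without CD8 beta, and the receptor made with the V region of Tcrg-V7 is the typical one there, held by butyrophilin-like proteins of the epithelium.

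The cells came from the duodenum of C57B6/J mice, male per the series title, 30 days after saline or preformed fibrils (PFF) of mouse recombinant alpha-synuclein were injected into the wall of the duodenum. Tissue was digested with Accumax and divided: one portion was sorted for CD45, the other was enriched on CD11b beads with dead cells sorted out, and both were pooled for 10x 3' v3 sequencing. Saline has 2 libraries and PFF 1 library in the labels, which give batch 1 for saline 1 and for PFF 1, and batch 2 for saline 2. The number of mice behind a library is not given, and nothing says that the libraries are separate animals, so p-values measure only the spread between these libraries.

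The 2 saline files share 3 wells of 1509, 3648 and 8732 cells with identical counts. These wells were counted once and are called shared saline. Below, saline 1 and saline 2 name the remaining well of either saline file. The 6 wells held 40606 cells and 7553070 to 142955760 UMIs each, and 33284 cells passed minima of 500 UMIs and 200 genes and a limit of 15% on mitochondrial UMIs. Of these, 27643 held Cd3e: 5053 in saline 1, 3288 in saline 2, 8851 in shared saline and 10451 in PFF 1, with medians of 3239, 10425.5, 5722 and 9337 UMIs. Saline 2 and PFF 1 had 119 cell barcode sequences in common, against 1 to 42 for the other pairs of wells and 19 for saline 1 and PFF 1, although the labels put saline 2 in another batch. T cell identity was checked with Cd3g, another CD3 chain, with UMIs in 96.6% to 97.5% of the Cd3e cells. Most of these cells also held Cd8a (91.3% to 95.7%), and few held Cd4 (0.574% to 2.67%).

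The gamma genes lie on chromosome 13 of GRCm38 (mm10) and the delta genes on chromosome 14, inside the alpha locus. From left to right, Tcrg-V7 (chr13:19178024-19178492, plus strand) comes before Tcrg-C1 (chr13:19214103-19217024, plus strand). Tcrg-C2 (chr13:19304649-19307551) and Trgv2 (chr13:19336573-19337167) are on the minus strand, and Tcrg-V1 (chr13:19339989-19340454) and Tcrg-C4 (chr13:19344558-19352756) follow on the plus strand. Trdv2-2 (chr14:53960944-53961602), Trdv4 (chr14:54074905-54075515) and Trdc (chr14:54142851-54148868) are on the plus strand, upstream of the alpha constant gene Trac (chr14:54220521-54224206).

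Several of the genes are near copies of each other, which bears on the counts of those genes below. The first 240 coding bases of the constant genes are shown to compare them. Capitals mark the bases that differ from Tcrg-C1 in the same alignment, 7 in Tcrg-C2 and 39 in Tcrg-C4. The sequences are those of the GENCODE M21 transcripts, coding strand.
Tcrg-C1: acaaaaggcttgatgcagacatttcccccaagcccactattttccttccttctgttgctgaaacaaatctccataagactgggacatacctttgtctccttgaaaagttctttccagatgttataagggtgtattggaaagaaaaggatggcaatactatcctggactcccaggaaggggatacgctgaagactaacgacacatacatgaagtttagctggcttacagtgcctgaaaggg
Tcrg-C2: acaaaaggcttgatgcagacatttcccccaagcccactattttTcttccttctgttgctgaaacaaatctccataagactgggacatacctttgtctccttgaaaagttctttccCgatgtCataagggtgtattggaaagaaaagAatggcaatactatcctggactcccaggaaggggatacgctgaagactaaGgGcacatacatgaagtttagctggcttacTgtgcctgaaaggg
Tcrg-C4: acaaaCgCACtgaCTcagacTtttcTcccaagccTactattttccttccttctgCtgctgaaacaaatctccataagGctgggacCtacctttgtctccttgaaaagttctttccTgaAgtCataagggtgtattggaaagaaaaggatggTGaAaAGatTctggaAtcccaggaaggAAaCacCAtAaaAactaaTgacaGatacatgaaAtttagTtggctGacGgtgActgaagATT

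Over the whole coding sequence, Tcrg-C1 and Tcrg-C2 were 97.4% identical where aligned, and Tcrg-C1 and Tcrg-C4 78.7%. Of the 50-base stretches of the transcripts, 34.2% of Tcrg-C1 and 25.4% of Tcrg-C2 also occurred in another gene, and none of Tcrg-C4. The V genes Tcrg-V1 and Trgv2, neighbours on opposite strands, were 95.7% identical. Their last 240 coding bases are shown because the end of a V gene holds the region next to the join, with capitals for the 13 bases of Trgv2 that differ from Tcrg-V1.
Tcrg-V1: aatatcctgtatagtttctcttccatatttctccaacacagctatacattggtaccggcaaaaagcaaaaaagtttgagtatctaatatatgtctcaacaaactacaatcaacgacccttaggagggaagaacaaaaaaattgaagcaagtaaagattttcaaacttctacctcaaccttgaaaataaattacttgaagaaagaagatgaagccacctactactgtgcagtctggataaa
Trgv2: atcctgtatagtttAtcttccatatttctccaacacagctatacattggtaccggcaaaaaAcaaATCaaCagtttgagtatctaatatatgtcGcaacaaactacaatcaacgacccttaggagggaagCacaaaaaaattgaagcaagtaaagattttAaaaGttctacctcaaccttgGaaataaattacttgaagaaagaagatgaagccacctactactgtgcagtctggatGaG

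The last 240 coding bases of Tcrg-V7 and Trdv2-2 are shown as a gamma and a delta V gene whose RNA was higher in cells with Trdc in the results below. Capitals mark the last in-frame TGT codon, which codes for a cysteine near the end of the V region.
Tcrg-V7: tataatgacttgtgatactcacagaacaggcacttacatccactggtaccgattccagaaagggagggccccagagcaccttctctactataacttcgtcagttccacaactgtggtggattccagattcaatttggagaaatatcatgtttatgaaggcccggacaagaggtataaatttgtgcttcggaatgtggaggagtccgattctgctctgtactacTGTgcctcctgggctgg
Trdv2-2: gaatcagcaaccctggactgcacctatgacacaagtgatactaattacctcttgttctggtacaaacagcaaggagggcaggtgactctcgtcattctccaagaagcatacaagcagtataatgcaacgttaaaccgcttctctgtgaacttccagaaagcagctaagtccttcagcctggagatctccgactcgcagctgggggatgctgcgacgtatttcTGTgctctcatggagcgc

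Tcrg-V7 and Trdv4 shared no 50-base stretch with another gene. Trdv2-2 shared 52.6% of its stretches with Trdv2-1, and its counts are uncertain, as are those of Tcrg-C1, Tcrg-C2, Tcrg-V1 and Trgv2. How Cell Ranger divided reads between such copies, and whether intronic reads were counted, is not given in the sources used here. Gm43434, an antisense gene, overlaps Trdc over 3437 bases, and Gm43647 overlaps Trdv2-2 over 572 bases.

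The 9 genes were all detected in Cd3e cells of every library, at levels given here in CPM, the gene's UMIs over all UMIs of those cells on the usual CPM scale. Trdc, the C region of every delta chain, stood at 698 CPM in saline 1, 661 in saline 2, 432 in shared saline and 584 in PFF 1. Tcrg-C1 stood at 755, 738, 513 and 618 CPM in the same order. Both genes were highest in the saline 1 and saline 2 wells and lowest in shared saline, with PFF 1 between them.

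Tcrg-C2 stood at 479 CPM in saline 1, 456 in saline 2, 349 in shared saline and 435 in PFF 1, and Tcrg-C4 at 456, 474, 347 and 414. In both, shared saline was again lowest and PFF 1 next. The 3 shared wells were not alike: Trdc was at 584, 496 and 421 CPM in them, and the third held 7426 of their 8851 Cd3e cells.

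Among the V genes, Trgv2 was at 468, 410, 356 and 338 CPM in saline 1, saline 2, shared saline and PFF 1. Tcrg-V1 was at 82.2, 86.1, 62.7 and 58.5 CPM. For these 2 genes PFF 1 was the lowest library, a little under shared saline.

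Tcrg-V7 was at 37.7 CPM in saline 1, 31.8 in saline 2, 32.7 in shared saline and 46.0 in PFF 1, the only member with its highest value in the PFF library. Trdv2-2 was at 22.3, 14.1, 11.4 and 14.6 CPM, with saline 1 above the rest. Trdv4 was at 3.74, 1.502, 1.79 and 2.74 CPM, on 57 to 307 UMIs a library, and its saline 1 and saline 2 values differed more from each other than PFF 1 differed from either.

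**Figure D1:**
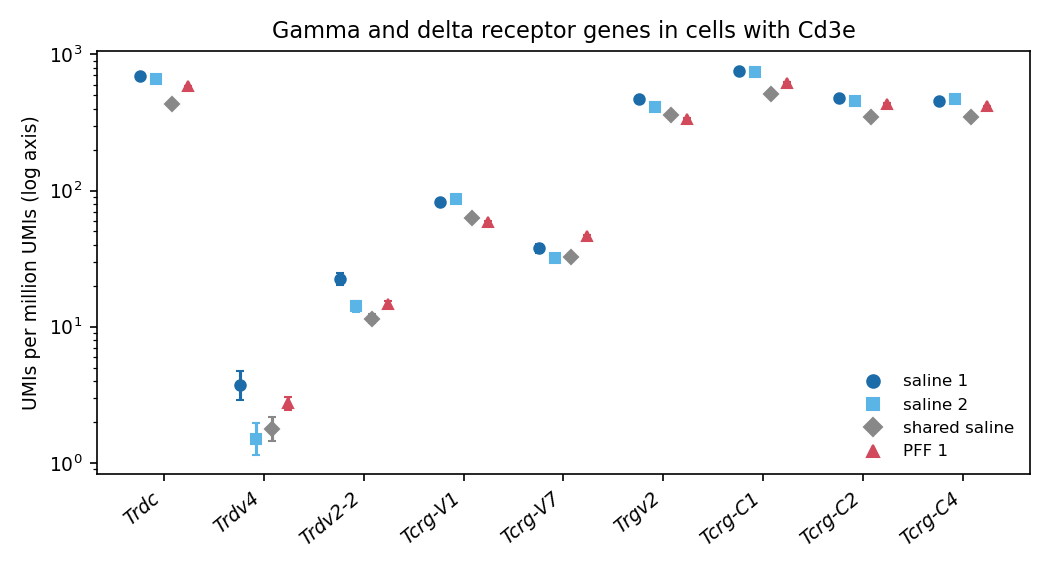
Level in CPM (log axis) of the 9 receptor genes in Cd3e cells of each library, with exact Poisson 95% intervals, which cover counting error only. Shared saline lies lowest for Trdc and the 3 gamma constant genes, while for Tcrg-V7 PFF 1 lies highest at 46.0.

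The treatment comparison asks whether these genes differed 30 days after PFF injection. edgeR's quasi-likelihood test with Benjamini-Hochberg adjustment was run on summed counts of 17177 genes in saline 1, saline 2 and PFF 1, which leaves 1 residual degree of freedom and assumes that PFF 1 varies like saline. None of the 9 members was called at an adjusted p under 0.05, in a table in which edgeR called 0% of the genes. At an unadjusted p under 0.05 there were 201 genes in the table, and DESeq2 called 8, none of them a member. In bulk sums, fewer cells with a receptor and less RNA per cell cannot be told apart.

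The largest difference was that of Tcrg-V1, at -0.51 ± 0.17 (log2 fold change and its standard error, PFF 1 against saline, adjusted p = 1.00 by edgeR, unadjusted p = 0.0277). Tcrg-V7 was at 0.42 ± 0.19, Trgv2 at -0.36 ± 0.20, Tcrg-C1 at -0.25 ± 0.21 and Trdc at -0.20 ± 0.20. The other 4 lay between -0.29 ± 0.34 (Trdv2-2) and 0.10 ± 0.74 (Trdv4). Within batch 1, PFF 1 against saline 1 gave -0.42 for Tcrg-V1, 0.36 for Tcrg-V7 and -0.19 for Trdc, as values with no test. PFF 1 lay below both saline wells in CPM for 6 members (Trdc, Tcrg-V1, Trgv2, Tcrg-C1, Tcrg-C2, Tcrg-C4), as 29.4% of all tested genes did, and above both for Tcrg-V7 alone, as 25.2% did.

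When shared saline entered as one more saline library, Trdc was at -0.02 and Tcrg-C2 changed sign to 0.03, and no member was called. Markers of other cells also differed between these libraries: the sum of 9 epithelial markers was 334, 1026 and 475 CPM in the Cd3e cells of saline 1, saline 2 and PFF 1, and that of 8 B cell markers 67.0, 74.8 and 180 CPM. Their part in the result was not tested.

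The share of Cd3e cells with a Trdc UMI was 65.0% in saline 1, 72.1% in saline 2, 55.8% in shared saline and 68.0% in PFF 1. Within each library the share was lowest in the shallowest cells, though the libraries did not rank by their median depth. Each cell was therefore also thinned at random to 2000 UMIs, leaving out 463, 121, 205 and 155 shallower cells. After thinning the shares were 58.2%, 58.8%, 43.8% and 52.5%. The order of the libraries changed: PFF 1 moved from between the saline wells to below both. B-like cells, which should lack the gene, held a Trdc UMI in 0% to 5.64% of cells at medians of 3573.5 to 7175.5 UMIs, or 0% to 1.72% after thinning.

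In the thinned cells the share in PFF 1 minus the mean of saline 1 and saline 2 was -6.04 percentage points for Trdc, -8.78 for Trgv2 and -7.07 for Tcrg-C1. Unthinned, the same difference was -0.523 points for Trdc, 6.19 for Trgv2 and 1.30 for Tcrg-C1, so the last 2 changed sign. For Tcrg-V7 it was 1.84 points thinned and 11.6 unthinned. No test was made on these shares, since with 3 libraries a permutation of the labels cannot give a p under 0.333.

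Several members differed by coreceptor. Coreceptors are the CD4 and CD8 molecules that bind the ligand beside the receptor, and Cd3e cells were divided into those with Cd8a UMIs and none of Cd8b1 or Cd4 (Cd8a-only, 3048 to 9380 cells a library), with Cd8b1 and no Cd4 (91 to 1224), with Cd4 alone (8 to 98) and with none of these. The question is whether the receptor genes follow the CD8 alpha homodimer that marks gut gamma-delta and other unconventional T cells. Each library gave both gates, so the library was kept as a block.

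In Cd8a-only cells Trdc was at 705, 705, 518 and 607 CPM in saline 1, saline 2, shared saline and PFF 1, and in Cd8b1 cells at 384, 336, 133 and 352. The groups did not overlap. Trdc rose by 1.15 ± 0.17 (log2, adjusted p = 0.00438, edgeR). It was higher in 4 of 4 libraries, most in shared saline.

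Tcrg-V7 was at 39.1, 34.2, 39.99 and 49.2 CPM in Cd8a-only cells and at 15.9, 13.2, 12.3 and 23.7 CPM in Cd8b1 cells, again without overlap. It rose by 1.32 ± 0.15 (adjusted p = 0.00106, edgeR). Tcrg-C1 was at 786, 784, 626 and 652 CPM against 362, 517, 167 and 407, and rose by 1.05 ± 0.19 (adjusted p = 0.0116, edgeR). These 3 of the 9 members were called higher, where edgeR called 1.81% of the 13231 tested genes higher and 2.87% lower.

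The other 6 were not called, with log2 fold changes of 0.48 ± 0.18 for Trgv2, 0.56 ± 0.16 for Tcrg-C2, 0.60 ± 0.17 for Tcrg-V1, 0.62 ± 0.20 for Tcrg-C4, 0.92 ± 0.36 for Trdv2-2 and 1.51 ± 0.64 for Trdv4. Not all of them pointed one way: Trdv2-2 had 22.1 CPM in Cd8a-only and 34.1 in Cd8b1 cells of saline 1, and Trdv4 and Trgv2 were the lower in Cd8a-only cells of saline 2. Without saline 1 the calls of Trdc (adjusted p = 0.0518) and Tcrg-C1 (adjusted p = 0.128) were lost, and without saline 2 Tcrg-V1, Trgv2 and Tcrg-C2 were called too. Without the library block Tcrg-C1 was not called (adjusted p = 0.0839). Epithelial markers moved with the gates, 7 of 8 tested being called higher in Cd8a-only cells, with sums of 300 to 740 CPM against 206 to 320. Their part was not tested.

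Against Cd4 cells the differences were larger, on few cells. Trdc was at 158 CPM in saline 1, 0 in saline 2, 30.0 in shared saline and 23.6 in PFF 1 in the Cd4 gate, of 8, 10, 98 and 77 cells, all under the Cd8a-only values above. Tcrg-C4 was at 189, 49.9, 37.8 and 36.0 CPM there, against 460, 496, 406 and 424 in Cd8a-only cells. Both constant genes were thus detected in some Cd4 cells, but did not overlap between the gates.

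Tcrg-C1, Trgv2, Tcrg-C2 and Tcrg-C4 had 1 to 35 UMIs in the Cd4 gate of each library. They were called higher in Cd8a-only cells than in Cd4 cells, where edgeR called 8.27% of 12451 genes higher and 7.2% lower. The log2 fold changes were 4.54 ± 0.33 for Tcrg-C1, 4.32 ± 0.33 for Trgv2, 3.82 ± 0.31 for Tcrg-C2 and 3.19 ± 0.29 for Tcrg-C4. Trdc had 0 UMIs in the Cd4 gate of saline 2, and Tcrg-V1, Tcrg-V7 and Trdv2-2 in that of 2 or 3 libraries. Trdc and these V genes passed the low-count filter through the Cd8a-only gate, so their calls are not counted here. Trdv4 had 0 UMIs in all 4 and was not called, and at 4.16 CPM or more the limit that a count of 0 allows per library (3 counts) was above its level in Cd8a-only cells.

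The alpha-beta constant genes were not called in either comparison: none of Trac, Trbc1 and Trbc2 passed between Cd8a-only and Cd8b1 cells (-0.25 ± 0.10, 0.05 ± 0.13 and -0.41 ± 0.13) or between Cd8a-only and Cd4 cells (-0.31 ± 0.24, -0.47 ± 0.25 and -0.41 ± 0.27).

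Outside the Cd3e cells, the members were low in B-like and epithelial-like cells, classes set by marker genes. Trdc was at 0 to 7.68 CPM in B-like cells and 0.796 to 9.79 in epithelial-like cells. Tcrg-V7 reached at most 0.311 CPM in B-like and 0.144 in epithelial-like cells. Other classes held more, among them plasmacytoid-like cells, with Trdc at 0 to 98.6 CPM, and a set of 824 cells with no Cd3e UMI but with Cd3d or Cd3g, whose leading genes include Syk, Klrb1c and Ncr1, genes of innate lymphocytes, and which are named here only by that rule.

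In these Cd3e-zero cells Tcrg-C4 was at 465, 572, 390 and 472 CPM in saline 1, saline 2, shared saline and PFF 1, against 406 to 496 in Cd8a-only cells. Tcrg-C1 was at 211, 32.6, 52.6 and 60.8 CPM there, and Trdc at 292, 80.1, 107 and 143. Tcrg-C4 thus overlapped the Cd8a-only cells in this set, while Trdc, Tcrg-C1 and Trgv2 (14.9 to 145 CPM) lay below them. Trdv4 was higher there, at 6.29 to 17.8 CPM on 2 to 28 UMIs, than in Cd8a-only cells (1.48 to 3.79). In the 83 cells called NK or ILC-like, with Cd3e, Cd3d and Cd3g all at 0, Tcrg-C4 was at 240, 403, 280 and 323 CPM, on 5 to 88 UMIs. In plasmacytoid-like cells it ranged from 27.1 CPM in saline 1 to 493 in saline 2.

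The order of the classes was set out for Trdc and Tcrg-C1. For Trdc the medians over 4 libraries were 656 CPM in Cd8a-only cells, 469 in cells with no coreceptor, 344 in Cd8b1 cells and 125 in the Cd3e-zero cells, and each of these ranges overlapped the next. For Tcrg-C1 they were 718 CPM in Cd8a-only cells, 384 in Cd8b1 cells, 296 in cells with no coreceptor and 56.7 in the Cd3e-zero cells, and of these neighbours only the first pair did not overlap. In cells without a coreceptor Trdc ran from 149 CPM in saline 2 to 821 in saline 1.

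**Figure D2:**
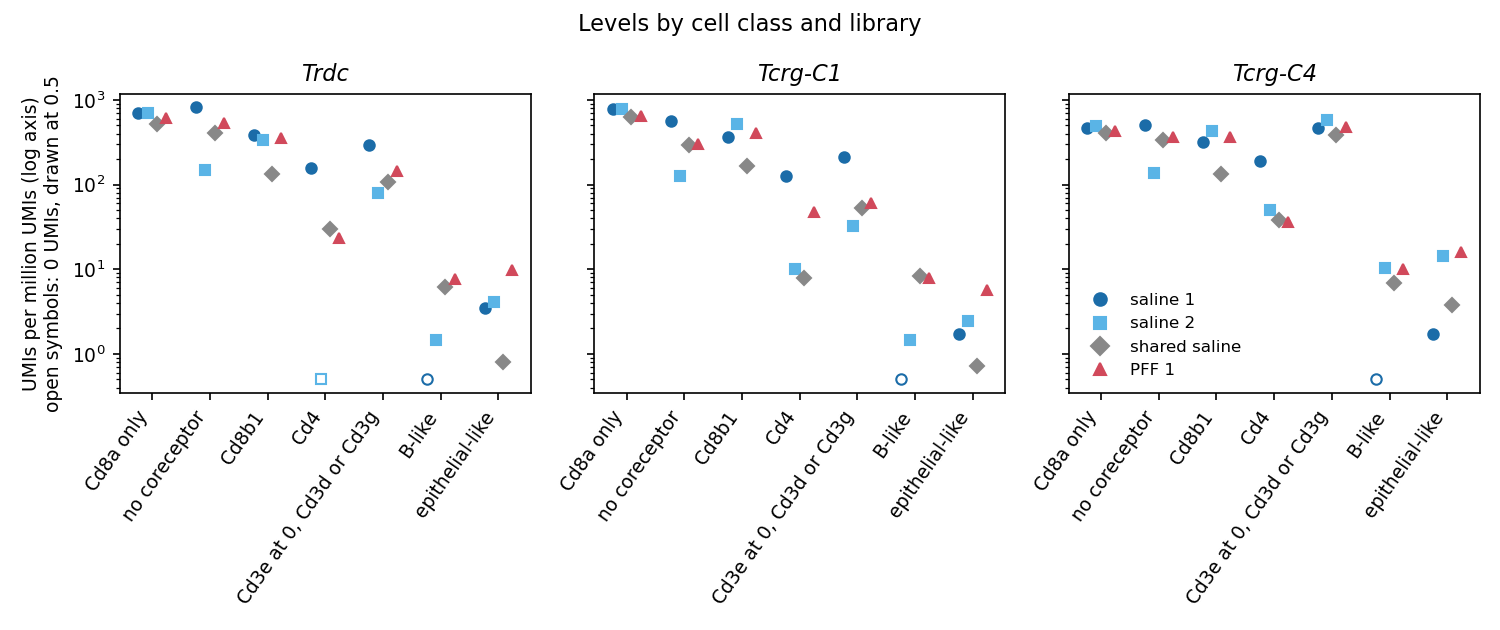
Level in CPM (log axis) of Trdc, Tcrg-C1 and Tcrg-C4 by class of cells, 1 point per library; open symbols stand for 0 UMIs. Tcrg-C4 in the Cd3e-zero cells (390 to 572) reaches the Cd8a-only level, whereas Trdc (80.1 to 292) and Tcrg-C1 (32.6 to 211) lie below it.

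RNA of both receptor types was found in most of the same cells. Of the Cd3e cells with a Trdc UMI, 93.5% in saline 1, 98.8% in saline 2, 96.6% in shared saline and 98.8% in PFF 1 also held a UMI of Trac, Trbc1 or Trbc2. After thinning to 2000 UMIs the shares were 87.0%, 89.5%, 84.8% and 86.4%. They moved with depth: among the shallowest cells, from 500 UMIs up to 2000, the shares were 72.4% to 86.0%, and in cells from 5000 up to 10000 UMIs they were 98.1% to 99.8%. In B-like cells a Trac UMI was found in 2.08% to 4.15% of cells and a Trbc2 UMI in 5.81% to 10.5%, below the T cells.

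The 2 chains of the alpha-beta receptor differed. Thinned to 2000 UMIs, Trac was found in 37.0%, 42.3%, 32.4% and 38.0% of the Trdc cells of saline 1, saline 2, shared saline and PFF 1, and in 60.6%, 56.8%, 49.1% and 53.7% of the cells without Trdc. Trbc1 or Trbc2 was found in 80.5%, 81.5%, 78.2% and 78.3% of the Trdc cells and in 88.7%, 85.4%, 84.7% and 81.7% of the others. Trac was rarer among Trdc cells in 4 of 4 libraries, and the beta genes by less.

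The gamma constant genes were also spread beyond the Trdc cells. Thinned, Tcrg-C1 was found in 78.2%, 77.1%, 73.1% and 73.2% of the Trdc cells and in 46.9%, 40.8%, 31.1% and 38.3% of the others. Tcrg-C2 was found in 55.6%, 59.0%, 50.6% and 56.6% of the Trdc cells and in 56.5%, 53.7%, 40.7% and 51.7% of the others. Tcrg-C4 was found in 56.6%, 61.4%, 52.0% and 55.5% of the Trdc cells and in 54.4%, 55.6%, 40.3% and 48.4% of the others. In each library the gap by Trdc was wider for Tcrg-C1 than for Tcrg-C2 or Tcrg-C4, and for these it was widest in shared saline.

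A gate by receptor RNA therefore kept few cells. Cells with Trdc and with Trac, Trbc1 and Trbc2 all at 0 numbered 214, 29, 169 and 82 in saline 1, saline 2, shared saline and PFF 1, or 0.785% to 4.24% of the Cd3e cells, against 1280, 790, 3019 and 2889 cells with Trac and a beta gene and no Trdc. The first gate was shallower, with medians of 1656 to 5102.5 UMIs against 3484.5 to 10900, and its epithelial markers summed to 398 to 4168 CPM against 272 to 554.

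Between these gates Tcrg-V7 was at 22.8, 12.9, 21.4 and 20.1 CPM against 17.4, 3.95, 5.52 and 11.2, higher in 4 of 4 libraries. Tcrg-C1 was at 854, 126, 598 and 253 CPM against 404, 189, 159 and 178, higher in 3 of 4. None of the 6 members tested was called by edgeR (Tcrg-V7 1.28 ± 0.40, adjusted p = 0.318; Tcrg-C1 0.91 ± 0.30, adjusted p = 0.356), where 0.579% of 10706 genes were called higher and 0.0467% lower. In the same comparison, 1190 genes had an unadjusted p under 0.05, and DESeq2 called 946 genes, 1 of them a member. Trdc set the gate, and Trdv4 and Trdv2-2 fell below the low-count filter.

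Leaving out cells with 3 or more markers of a further class, Tcrg-C1 (1.53), Tcrg-V7 (1.63) and Tcrg-V1 (0.77) were called higher, where 0.606% of the genes were called higher and 1.9% lower. Trdv2-2 passed the low-count filter there through the gate with Trdc, and its call is not counted.

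The number of Trdc UMIs per cell was also read. Among Cd3e cells with at least 5000 UMIs, thinned to 5000, 32.2% in saline 1, 29.4% in saline 2, 44.9% in shared saline and 34.6% in PFF 1 had no Trdc UMI, and only 5.97% to 9.01% had a single one. Cells with 5 to 9 made up 22.3%, 29.2%, 17.6% and 23.5%, and those with 10 or more 2.24% to 6.82%. In each library cells with none outnumbered those with a single UMI. So did cells with 5 to 9, but that class spans several counts, so the comparison does not show a second peak.

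Mean Tcrg-C1 in the cells with no Trdc was 1.81, 1.06, 0.900 and 1.05 UMIs in saline 1, saline 2, shared saline and PFF 1, and in cells with 1 to 4 Trdc UMIs 4.19, 4.56, 3.93 and 3.96. Mean Trac went the other way, from 2.74, 2.88, 2.20 and 2.75 to 1.48, 1.68, 1.22 and 1.41. Tcrg-C2 moved less, from 2.09, 2.35, 1.60 and 2.09 to 2.00, 2.34, 1.97 and 2.14. Most of the step in Tcrg-C1 lay between 0 and 1 to 4 Trdc UMIs.

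**Figure D3:**
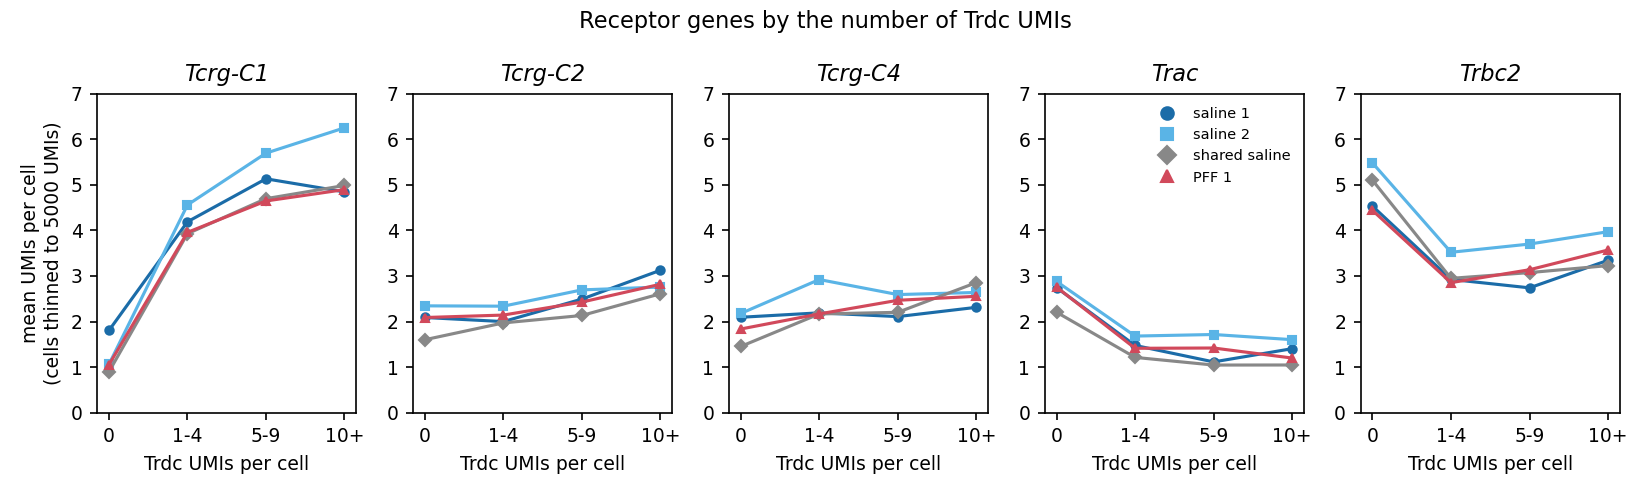
Mean UMIs per cell of 3 gamma and 2 alpha-beta constant genes, by the number of Trdc UMIs, in Cd3e cells thinned to 5000 UMIs, 1 line per library. Tcrg-C1 rises from 0.900 to 1.81 UMIs without Trdc to 3.93 or more with it, and Tcrg-C2 and Tcrg-C4 change less. Trac and Trbc2 are lower with Trdc than without it, but Trbc2 is higher at 10 or more Trdc UMIs than at 1 to 4 in each library.

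A gate on the amount of Trdc was therefore added after these values were seen: cells with 5 or more Trdc UMIs against cells with 0, among Cd3e cells of at least 5000 UMIs. It held 246 and 196 cells in saline 1, 1879 and 788 in saline 2, 1834 and 2309 in shared saline, and 5067 and 3010 in PFF 1. The Trdc counts of this gate were not thinned, so its 2 sides were not matched for depth, and deeper cells reach 5 UMIs more easily. The part of depth in the differences below was not tested. Trdc sets the gate and gets no test. The gate was chosen from values of the same cells, so its tests describe these cells and lend no separate support to the means above.

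The delta V gene Trdv2-2 was at 35.5, 20.2, 20.96 and 22.3 CPM in Trdc-high cells of saline 1, saline 2, shared saline and PFF 1, and at 0, 0.387, 0.515 and 0.641 in cells without Trdc. Trdv4 was at 2.77, 1.97, 2.86 and 4.02 CPM against 0, 0.677, 0.257 and 0.305, on 0 to 10 UMIs a library in the second gate. Both were higher in Trdc-high cells in 4 of 4 libraries. Both passed the low-count filter through the Trdc-high gate, so no fold or test is given for them.

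Tcrg-V7 was at 53.3, 44.9, 55.3 and 63.5 CPM against 17.2, 3.29, 4.99 and 10.4, and rose by 2.97 ± 0.26 (adjusted p = 0.00132, edgeR). Tcrg-C1 was at 908, 1010, 854 and 869 CPM against 309, 161, 144 and 163, and was higher by 2.30 ± 0.18. Tcrg-V1 was at 77.7, 105, 87.0 and 73.3 CPM against 57.7, 43.3, 38.3 and 35.1, and rose by 1.05 ± 0.11 (adjusted p = 0.0024, edgeR). For each of these 3 genes saline 1, the shallowest library, had the smallest ratio.

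The remaining 3 gamma genes differed little. Tcrg-C2 was at 462, 483, 418 and 468 CPM against 396, 419, 286 and 409 and was called at 0.27 ± 0.07 (adjusted p = 0.0477, edgeR), a call that was lost without saline 1, without saline 2 or without PFF 1 (adjusted p 0.0662 to 0.122). Trgv2 (0.23 ± 0.08, adjusted p = 0.153) and Tcrg-C4 (0.38 ± 0.11, adjusted p = 0.073) were not called. Beside the calls of Tcrg-V7, Tcrg-C1, Tcrg-V1 and Tcrg-C2, edgeR called 1.06% of 14372 genes higher and 9.31% lower.

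The alpha-beta constant genes were lower. Trac was at 247, 315, 226 and 283 CPM in Trdc-high cells against 538, 538, 420 and 555, a log2 fold change of -0.96 ± 0.06. Trbc2 was at -0.63 ± 0.05 and Trbc1 at -0.35 ± 0.08, the latter not lower in saline 1, where it was 468 against 454 CPM. All 3 were called by edgeR. Without the library block Trbc2 (adjusted p = 0.0638) and Trbc1 (adjusted p = 0.26) were not called, and Trbc1 was also lost without saline 2 (adjusted p = 0.238), without PFF 1 (adjusted p = 0.165) or without the shared wells (adjusted p = 0.0663). No alpha-beta gene was near 0 in the Trdc-high cells.

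**Figure D4:**
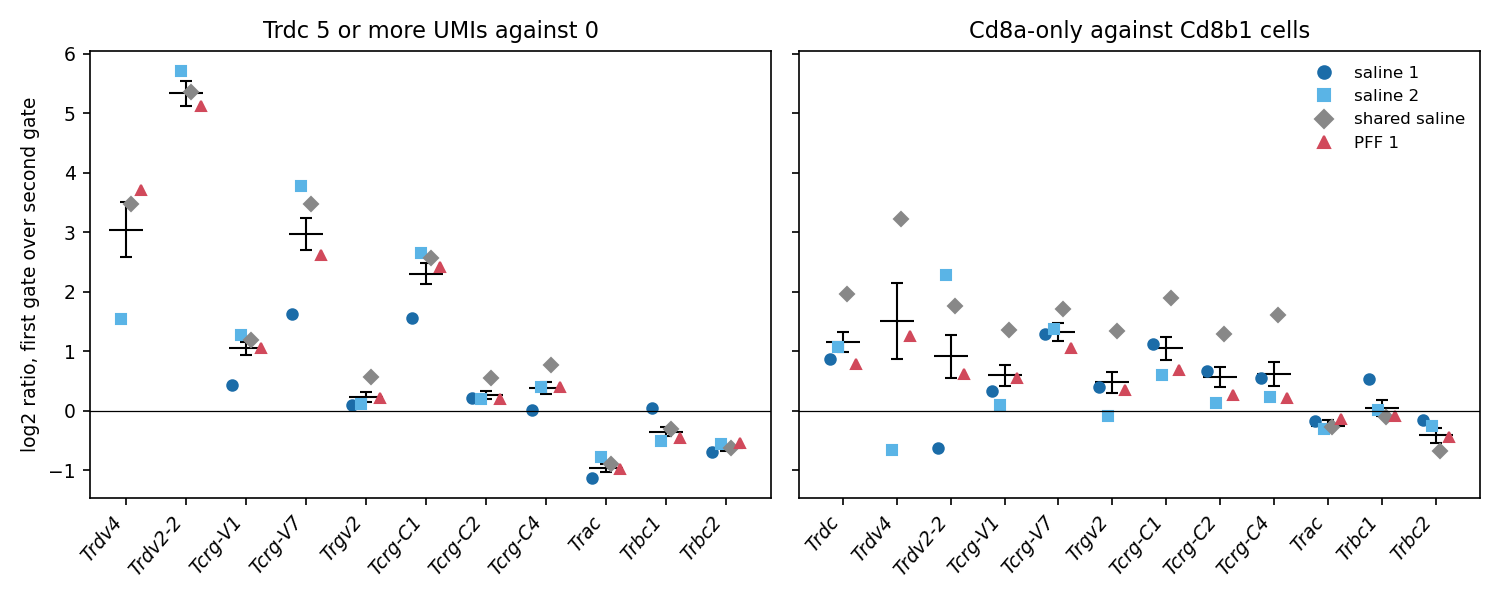
Log2 ratios of CPM per library for 8 or 9 receptor genes and the 3 alpha-beta constant genes, in Trdc-high against Trdc-zero cells (left) and Cd8a-only against Cd8b1 cells (right), with the fitted value and its standard error as black bars; a library with 0 UMIs in a gate has no point. On the left Tcrg-V7 and Tcrg-C1 are fitted at 2.97 and 2.30, and Tcrg-C2, Tcrg-C4 and Trgv2 at 0.23 to 0.38; the bars of Trdv2-2 and Trdv4 rest on 0 to 21 UMIs a library in the second gate.

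A list of other receptor genes, made of V genes and of the joining (J) and C genes of the gamma locus, moved in both directions. Of 176 in the files, 39 passed the low-count filter, and 8 were called higher and 16 lower in Trdc-high cells (median log2 fold change -1.01, against 0.003 over all genes tested). Several were near 0 in 1 gate and passed the filter through the other, so these counts say little of the list. The delta V gene Trdv5 was at 5.43 to 8.32 CPM in Trdc-high cells against 0 to 0.749, and overlaps Trdc on the opposite strand over 207 bases. Trav15d-1-dv6d-1, whose name marks it as usable by alpha and delta chains, was at 1.40 to 2.77 CPM against 0 to 0.061. The delta V gene Trdv1 was called at 2.30 ± 0.25 and the gamma V gene Tcrg-V4 at 0.88 ± 0.11. Trav16n was at 0.254 to 0.555 CPM in Trdc-high cells against 4.28 to 4.68, and Trav16d-dv11, with a double name as well, at 0 to 0.257 against 1.44 to 2.71. The 16 called lower all carry alpha or beta V names, Trav16d-dv11 with its double name among them. Trav16n and Trav16d-dv11 were near 0 in Trdc-high cells, so these names are no result about the list.

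Coreceptor and costimulatory genes were lower in Trdc-high cells. Of 11 tested, 7 were called lower and none higher (median -2.56), where edgeR called 9.31% of 14372 genes lower and 1.06% higher. Those shares apply to the lists below as well. The 7 were Cd5 (-3.33 ± 0.21), a brake on receptor signalling, Icos (-2.89 ± 0.32), Cd4 (-2.85 ± 0.25), Cd2 (-2.80 ± 0.26), Cd8b1 (-2.56 ± 0.16), Cd6 (-1.70 ± 0.38) and Cd28, the second signal of conventional T cells. Cd8a was at 0.02 ± 0.06 and Cd27 at 0.05 ± 0.05, and neither was called. Cd28 had 1 UMI in the Trdc-high cells of saline 1 and of saline 2 and passed the low-count filter through the cells without Trdc. No fold is given for it, and its call is not read as a result. Without the library block none of the 7 was called, nor any gene of the CD3, effector or butyrophilin-like lists below. All 7 were also called lower, with Ctla4 as an eighth, when cells with 3 or more markers of another class were left out. In that setting edgeR called 1.17% of genes lower.

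Among 10 genes of CD3 and receptor signalling, 2 rose and 1 fell (median 0.15). Cd247, the zeta chain of the CD3 complex, rose by 0.85 ± 0.10 (adjusted p = 0.00301, edgeR) and Cd3g by 0.28 ± 0.06. Syk, a kinase of receptor signalling, fell by 1.66 ± 0.24. Without mixed cells only the call of Cd247 was left, at 0.70 ± 0.08.

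Of 16 effector genes of intraepithelial lymphocytes, 5 rose by small amounts and 1 fell (median 0.17). Ccl5, a chemokine, rose by 0.38 ± 0.05, Prf1, the pore protein of killing granules, by 0.34 ± 0.07, the granzyme Gzmb by 0.30 ± 0.07, Itgae, the integrin chain that binds epithelial cadherin, by 0.24 ± 0.04 and Nkg7 by 0.17 ± 0.04. The receptor gene Klre1 fell by 1.19 ± 0.23. Without mixed cells Ccl5 (0.27 ± 0.04) and Klre1 (-1.29 ± 0.18) were still called and the other 4 were not.

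Of 16 lineage regulators 1 was called higher, Runx3, needed for CD8 and intraepithelial programmes, at 0.19 ± 0.04. That call was lost without mixed cells (0.07 ± 0.04, adjusted p = 0.888, edgeR) and without the library block (adjusted p = 0.371, edgeR). Maf (-1.49 ± 0.09), Lef1 (-1.63 ± 0.14) and Blk (-2.07 ± 0.35) fell, and without the block only the call of Maf was left. Maf and Blk serve the IL-17 type of gamma-delta T cell, and of the list for that type Blk and the chemokine receptor gene Ccr6 (-2.01 ± 0.36) were called lower. Without mixed cells neither Blk nor Ccr6 passed the low-count filter, and Maf, Lef1, Tcf7 and Zbtb16 were called lower. B cell markers were lower in Trdc-high cells as well, as given below, and their part in the Blk and Ccr6 calls was not tested.

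Markers of other cells moved with this gate too. Of 9 epithelial markers 8 were called lower in Trdc-high cells, with sums of 244, 639, 306 and 339 CPM against 722, 1952, 440 and 608 in saline 1, saline 2, shared saline and PFF 1, and of 8 B cell markers 5 were lower (49.6 to 133 CPM against 125 to 336). All 4 butyrophilin-like genes, Btnl1, Btnl2, Btnl4 and Btnl6, which are epithelial, were at 0 to 2.82 CPM in Trdc-high cells against 1.24 to 11.99. Without cells that hold 3 or more markers of another class, edgeR called 0.673% of genes higher and 1.17% lower, no butyrophilin-like gene passed the low-count filter, and Tcrg-V7, Tcrg-C1 and Tcrg-V1 were called as before.

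The V and C genes were also compared cell by cell, since a joined V region is read out with the C gene of its own cassette. Cells of 5000 or more UMIs were thinned to 5000, and for each V gene the mean UMIs of a C gene in cells with that V were set over the mean in cells without it. Cells with Tcrg-V7 had 5.33, 6.88, 5.34 and 5.29 Tcrg-C1 UMIs in saline 1, saline 2, shared saline and PFF 1, and cells without it 3.33, 3.48, 2.32 and 2.66. The log2 ratio was 0.68 to 1.20 for Tcrg-C1, and lay on both sides of 0 for Tcrg-C2 (-0.21 to 0.16) and Tcrg-C4 (-0.13 to 0.14).

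Cells with Trgv2 had 2.50, 2.86, 2.37 and 2.57 Tcrg-C2 UMIs and cells without it 1.16, 1.19, 0.703 and 1.32, a log2 ratio of 0.97 to 1.76. For Tcrg-C1 the ratio was 0.12 to 0.67 and for Tcrg-C4 -0.02 to 0.64. Cells with Tcrg-V1 had 2.66, 3.46, 2.82 and 2.95 Tcrg-C4 UMIs against 1.96, 2.25, 1.60 and 1.92, a ratio of 0.44 to 0.82, and -0.32 to 0.03 for Tcrg-C1. In each library each of these 3 V genes thus went most with the next C gene downstream on its own strand.

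Tcrg-V4, which lies between Tcrg-V7 and Tcrg-C1, did not show such a pattern, with log2 ratios of -0.08 to 0.37 for Tcrg-C1 and 0.15 to 0.35 for Tcrg-C4. For the delta genes, cells with Trdv2-2 had more Trdc (log2 0.63 to 0.92), more Tcrg-C1 (0.50 to 0.80) and less Trac (-0.68 to -0.34). Trdv4 was seen in only 7 to 119 cells a library, with Trdc at 0.16 to 0.74. These ratios are descriptions across cells that share a library and depth, and no test was made on them.

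**Figure D5:**
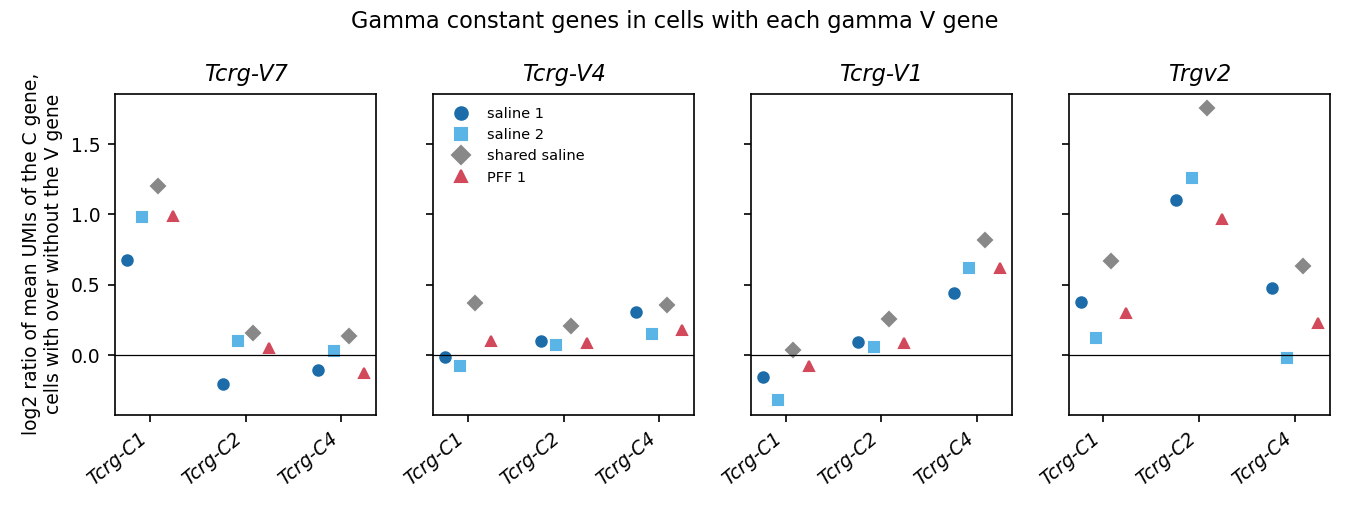
Log2 ratio of the mean UMIs of each gamma constant gene in cells with over cells without a gamma V gene, 1 point per library, Cd3e cells thinned to 5000 UMIs. Tcrg-V7 stands out for Tcrg-C1 (0.68 to 1.20), Trgv2 for Tcrg-C2 (0.97 to 1.76) and Tcrg-V1 for Tcrg-C4 (0.44 to 0.82), and Tcrg-V4 for none.

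A cell often held UMIs assigned to more than 1 gamma V gene. Of Tcrg-V7, Tcrg-V4, Tcrg-V1 and Trgv2, 1 was detected in 48.9%, 51.4%, 46.2% and 49.1% of the thinned cells of saline 1, saline 2, shared saline and PFF 1, and none in 14.5%, 13.6%, 22.9% and 17.6%. A pair was detected in 30.2%, 29.7%, 26.0% and 27.8%, and 3 in 4.68% to 6.26%. The libraries were close to each other in this, with shared saline having the most cells with none. Tcrg-V1 and Trgv2 are near copies with uncertain counts. In the same order of libraries, Trgv2 was found in 84.3%, 78.9%, 78.5% and 75.8% of cells with Tcrg-V1. Without Tcrg-V1 it was found in 74.6%, 76.0%, 65.7% and 70.9%. How far reads of one were counted as the other was not tested, and the counts do not show which V gene was part of a receptor chain.

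The genes whose detection went most with that of Trdc across thinned Cd3e cells were ranked by the lowest of the 4 libraries' correlations. The ranking held 8027 genes and left out receptor genes by symbol only, so Gm43434 and Gm43647, which overlap Trdc and Trdv2-2, stayed in it. The first was Gm43434 (r = 0.181 to 0.247), the antisense gene that overlaps Trdc. Whether the counting used strand is not given in the sources used here, so how far the 2 genes were counted apart is not known. Next came Zmat4 (0.146 to 0.284), Scin (0.0984 to 0.162), an actin-severing protein, Cd247 (0.0962 to 0.167), Ccl5 (0.0925 to 0.165), Gm43647, Gzmb, Cd72, Tshz3 and Clnk, the last with 0.0535 to 0.204. The 5 that went most against it were Nr3c2, the mineralocorticoid receptor (-0.120 to -0.0802), Plce1 (-0.134 to -0.0646), Bach2, Iqgap2 and Gm26740.

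All of these correlations were weak, and in sparse counts a weak correlation is no finding. Among the receptor genes Tcrg-C1 had 0.324 to 0.416, Tcrg-V7 0.0955 to 0.142, Trdv2-2 0.0928 to 0.120, and Trac -0.233 to -0.142. Trgv2 (-0.0307 to 0.106) and Tcrg-C2 (-0.00898 to 0.0988) lay on both sides of 0 over the 4 libraries. Cells of a library share its depth and free RNA, so these values describe the libraries and carry no test.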

How the data were processed

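The values are UMI counts, not normalized, for each gene in each cell, deposited by the authors and made with Cell Ranger 7.0.0, per the file headers, on mm10, per the submitters' processing notes. The annotation release is not given in the sources used here. Cells had at least 500 UMIs, 200 genes and at most 15% mitochondrial UMIs, and shared wells were counted once. No doublet caller was run; leaving out cells with 3 or more markers of another class was an alternative. Counts were summed per library and gate and tested with edgeR 4.0.16 (TMM, filterByExpr, quasi-likelihood, Benjamini-Hochberg threshold 0.05; R 4.3.3), with the library as a block in gate comparisons, since both gates come from the same library. Alternatives were DESeq2 1.42.0, other normalization and filters, no block, other uses of the shared wells and leaving out a library. Thinning used numpy 2.4.6 and intervals scipy 1.17.1 (Python 3.11.15). Sequences came from GENCODE M21 transcripts, aligned with Biopython 1.88. All members are named, with the 4 genes of lowest p of each list and, chosen after their values were seen, further list genes that passed the test; genes like Trdc are the 10 highest and 5 lowest by correlation. The members and lists were chosen with earlier results of these data known. The scripts were tested on simulated data. One gene of the lists is not reported here.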

Additional observations from a re-analysis of the deposited data

How the results depend on the processing

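No paired analysis was possible because the PFF group has 1 library. For PFF against saline edgeR called 0 genes, DESeq2 8, and edgeR without the barcodes shared by saline 2 and PFF 1, a setting chosen after seeing the data, 3. Log2 differences changed sign with shared saline as one more library for Tcrg-C2 (0.0297), with the files as deposited for Tcrg-C1 (0.0661), Tcrg-C2 (0.16), Tcrg-C4 (0.10), Trdv2-2 (0.13) and Trdc (0.19), and with each well as a library for Tcrg-C2 (0.0944), Tcrg-C4 (0.0763) and Trdc (0.0413). Leaving out a saline library gave -0.54 to 0.0816 for Trdv2-2 and -0.38 to 0.88 for Trdv4. For the gate with Trdc and no alpha-beta UMIs, 67 genes were called, against 546 with no low-count filter, 946 by DESeq2, 133 with at most 10% mitochondrial UMIs, 256 without mixed cells, 243 without the shared wells, 12 with each well as a library and 0 to 13 with saline 1, saline 2 or PFF 1 left out. Members called higher there numbered 0, against 1 with no filter, by DESeq2, at 10% or without the shared barcodes, 4 without mixed cells (Trdv2-2 among them, which entered through the first gate) and 2 with at least 2 Trdc UMIs, and Tcrg-C4 changed sign in the last 2 settings (0.13 and 0.17). For Cd8a-only against Cd8b1 cells 619 genes were called, against 1506 with no filter, 342 without mixed cells and 223 to 1215 with one of these 3 left out, and 3 members, against 8 with no filter and 1 to 6 with one of these 3 left out. For Cd8a-only against Cd4 cells the 1926 calls became 1216 without the shared wells, 1229 with each well as a library and 1033 to 2083 with one of these 3 left out. For Trdc-high cells the 1490 calls became 2354 with no filter, 241 without mixed cells and 687 to 1470 with one of these 3 left out. With no replicate block, the calls over all genes were 1, 401 and 67 for the receptor, Cd8b1 and Trdc-high gates. In that setting 2 members were called higher for Cd8b1. No member count is given for Cd4 and Trdc-high, where some members passed the low-count filter through the first gate. The Trdc share difference of -6.04 points was -6.59 thinned to 1000 UMIs, -4.35 at 5000, -0.523 unthinned and -7.69 for at least 2 UMIs. Unthinned share differences changed sign for Tcrg-V1 (2.68), Trgv2 (6.19), Tcrg-C1 (1.30), Tcrg-C2 (8.47) and Tcrg-C4 (7.88). The mean share of Trdc cells with alpha-beta RNA, 86.9%, was 69.0% at 1000 UMIs, 97.7% at 5000, 96.9% unthinned and 61.5% for at least 2 UMIs. The causes were not tested. Depth limits Trdv4, on few UMIs, and the Cd4 gate, on few cells.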
